A study of Mus musculus with 16 samples.

Results

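The CC chemokines described here are the 10 genes Ccl2, Ccl3, Ccl4, Ccl5, Ccl6, Ccl7, Ccl8, Ccl9, Ccl11 and Ccl20. They were chosen by name, all 10 of 10 were measured, and each was read by its brightest probe set among the 19938 genes of the array. Mouse embryo fibroblasts (MEFs), cells grown out of embryos of a C57Bl/6 x 129Sv strain, were measured on 16 arrays of the type Affymetrix Mouse Gene 1.0 ST. SIMPL, the product of Irak1bp1, is a nuclear partner of the p65 subunit of NF-κB, and the study asked which genes induced by TNFα need it. Arrays 13 to 16 held SIMPL-/- MEFs (IRAK1BP1-/- in the labels) treated with recombinant human TNFα, and arrays 9 to 12 held untreated SIMPL-/- MEFs. Arrays 5 to 8 held TNFα treated littermate MEFs (WT in the labels), and arrays 1 to 4 held untreated littermate MEFs. The dose of TNFα was 10 ng/ml and the labels give a treatment of 45 min. The methods describe 4 independent derivations of fibroblasts per strain, each from 1 embryo and each analysed on its own. No label ties an array to 1 of these derivations. The p-values therefore measure the spread between these arrays, and the labels alone do not exclude technical repeats.

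CC chemokines are small secreted proteins with a pair of adjacent cysteines near the amino terminus. They bind G protein-coupled receptors of the Ccr family and draw monocytes, macrophages, eosinophils, dendritic cells and lymphocytes into tissue. Many of their genes are direct targets of NF-κB, which TNFα activates, and fibroblasts as well as macrophages express members of the family. In RefSeq (GRCm38.p6) 9 of the 10 genes lie on mouse chromosome 11 in 2 clusters, with 26 protein-coding genes between them. Each cluster is taken here as the span between its outermost listed members, and chemokine genes beyond that span were not counted in it. The first cluster so defined holds, in order, Ccl2, Ccl7, Ccl11, Ccl12 and Ccl8. The second holds Ccl5, Ccl9, Ccl6, Ccl3 and Ccl4, with no other protein-coding gene among them, and Ccl20 lies on chromosome 1.

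All levels below are log2 RMA values, on which a difference of 1 is a 2-fold change, and levels of different genes are not compared because their probes differ. Irak1bp1 was lower in SIMPL-/- than in littermate MEFs, with a log2 difference of −2.54 with TNFα (n = 4 arrays per group, SE 0.12, limma adjusted p = 4.62e-12) and of −2.73 without it (adjusted p = 2.15e-12). Fibroblast markers were read on every array, with a mean over 14 genes of 12.27 to 12.37 on the SIMPL-/- arrays and 12.50 to 12.61 on the littermate arrays. In each condition 3 of the 14 were higher and 8 lower in SIMPL-/- MEFs, so the means cover changes in both directions. The largest differences with TNFα were −2.78 for Lum, 1.70 for S100a4, −1.01 for Dcn and 0.71 for Thy1. Without TNFα they were −2.87, 1.69, −1.02 and 0.73 for the same genes. Of 8 epithelial markers 3 were higher in SIMPL-/- MEFs with TNFα and 5 without it, the keratin genes Krt18, Krt8 and Krt14 by the most, and of 10 lymphoid markers 0 differed (limma, 1 higher with TNFα at an unadjusted p under 0.05, 0 by the methods' t-test). Endothelial markers (10) had 3 higher and 3 lower with TNFα and 3 higher and 1 lower without it, and mast cell markers (9) had 1 higher and 1 lower with TNFα and 3 higher and 1 lower without it. Over all genes 17.8% were higher and 18.4% lower with TNFα and 23.3% higher and 17.6% lower without it, so the endothelial and mast cell counts lie near the background. The 8 of 14 fibroblast markers called lower exceed these shares. Myeloid markers differed more often. Their mean over 32 genes was 7.11 to 7.21 on the TNFα treated and 7.09 to 7.21 on the untreated SIMPL-/- arrays, against 8.95 to 9.34 on the TNFα treated and 8.84 to 9.19 on the untreated littermate arrays. Of the 32 genes 31 were lower in SIMPL-/- MEFs with TNFα and 30 were lower without it. Macrophages express several of the CC chemokines described here, and the part of these markers in any difference between the genotypes was not tested. RMA gives no detection call, so whether the lowest levels lie above background was not determined.

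TNFα raised 4 of the 10 CC chemokines in SIMPL-/- MEFs (limma, adjusted p under 0.05), where 1.73% of all genes rose, and 7 of the 10 in littermate MEFs, where 2.7% of all genes rose. Ccl2, Ccl7, Ccl11 and Ccl20 rose in both genotypes, and Ccl3, Ccl4 and Ccl9 passed the test in littermate MEFs alone. The median log2 response of the 10 genes was 0.23 in SIMPL-/- and 0.62 in littermate MEFs, against −0.02 and 0.01 over all genes. None of the 10 was lowered in either genotype by limma, where 1.39% of all genes fell in SIMPL-/- and 2.45% in littermate MEFs (0 at an unadjusted p under 0.05, and 0 by the methods' t-test). With the methods' t-test the counts of raised genes were 3 in SIMPL-/- and 5 in littermate MEFs. The difference between the 2 responses was tested in the same model. It was negative, a smaller response in SIMPL-/- MEFs, for Ccl7, Ccl20 and Ccl4 at an adjusted p under 0.05, 3 of the 10 genes against 0.441% of all genes. The median difference of the 10 was −0.29, against −0.03 over all genes, and 9 of the 10 estimates were below 0.

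**Figure D1:**
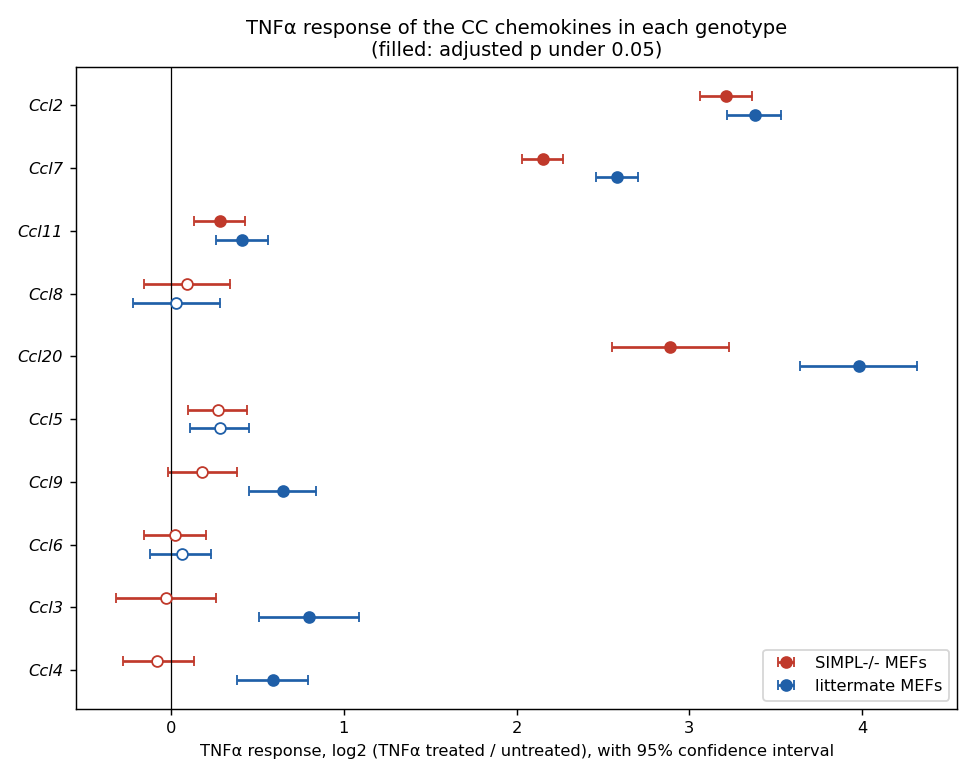
TNFα response of each CC chemokine (horizontal axis, log2 of TNFα treated over untreated) in SIMPL-/- MEFs (red, upper point of each pair) and littermate MEFs (blue), n = 4 arrays per group, with the 95% confidence interval of the limma model as bars and filled points for an adjusted p under 0.05. Ccl2, Ccl7 and Ccl20 lie far to the right in both genotypes, while Ccl3, Ccl4 and Ccl9 lie above 0 in littermate MEFs and within their intervals of 0 in SIMPL-/- MEFs.

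Ccl2 (MCP-1), the ligand through which Ccr2 calls monocytes out of the blood, was strongly induced in both genotypes. Its log2 values were 11.43, 11.56, 11.36 and 11.34 in TNFα treated SIMPL-/- MEFs, against 8.23, 8.32, 8.21 and 8.09 in untreated SIMPL-/- MEFs. In littermate MEFs they were 11.48, 11.71, 11.67 and 11.74 with TNFα, against 8.30, 8.12, 8.34 and 8.34 without it. Every treated array lay above every untreated array. The rise was 9.26-fold in SIMPL-/- MEFs (log2 3.21, SE 0.07, adjusted p = 3.79e-16 from limma) and 10.4-fold in littermate MEFs (log2 3.38, SE 0.07, adjusted p = 9.21e-17). Among all genes it was the second largest rise in SIMPL-/- MEFs and the fifth largest in littermate MEFs. The difference between the responses was −0.17 with a 95% confidence interval of −0.38 to 0.05 (adjusted p = 0.512), so a response up to 0.38 smaller on the log2 scale in SIMPL-/- MEFs lies within the interval. With TNFα the level was 0.23 lower on the log2 scale in SIMPL-/- MEFs (SE 0.07, adjusted p = 0.0194), although array 5 of the littermate group, at 11.48, fell within the range of the SIMPL-/- arrays. This call was lost without array 6, 8, 15 or 16 (adjusted p of 0.0555, 0.0601, 0.0553 and 0.056) and with the methods' t-test (adjusted p = 0.0757). Without TNFα the genotypes differed by −0.06 (adjusted p = 0.514).

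Ccl7 (MCP-3), the neighbour of Ccl2 and another ligand of Ccr2, had the same order of groups with TNFα but the opposite order without it. Its values were 11.52, 11.44, 11.42 and 11.51 in TNFα treated and 9.42, 9.26, 9.36 and 9.24 in untreated SIMPL-/- MEFs. In littermate MEFs they were 11.62, 11.64, 11.63 and 11.60 with TNFα and 9.0, 8.95, 9.17 and 9.06 without it. All 4 untreated SIMPL-/- arrays thus lay above all 4 untreated littermate arrays, and all 4 treated SIMPL-/- arrays lay below the treated littermate arrays. The rise was 4.45-fold in SIMPL-/- MEFs (log2 2.15, SE 0.06, adjusted p = 4.13e-15) and 5.97-fold in littermate MEFs (log2 2.58, SE 0.06, adjusted p = 1.35e-16). The difference between the responses was −0.42 (SE 0.08, adjusted p = 0.0164). It combined a level 0.28 higher without TNFα (adjusted p = 0.000802) with one 0.15 lower with TNFα (log2 difference −0.15, adjusted p = 0.0497). The higher untreated level of Ccl7 in SIMPL-/- MEFs was the sole rise between the genotypes among the 10 genes. The smaller response was lost without array 14 (adjusted p = 0.0511) and after median centring of the arrays (adjusted p = 0.081). The lower treated level was lost under that centring (adjusted p = 0.0983) and without any 1 array other than 2, 3, 9 or 13 (adjusted p of 0.0381 to 0.117 over all 16 omissions).

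Ccl20, the ligand of Ccr6 on dendritic cells and lymphocytes, differed more between the genotypes than the other strongly induced members, Ccl2 and Ccl7, once TNFα was given. It stood at 8.78, 9.07, 9.11 and 9.04 in TNFα treated and 6.19, 6.15, 6.16 and 5.93 in untreated SIMPL-/- MEFs. In littermate MEFs the values were 9.82, 10.15, 9.80 and 9.91 with TNFα and 5.47, 5.62, 6.17 and 6.51 without it. The treated groups did not overlap, whereas the untreated littermate arrays spread on both sides of the untreated SIMPL-/- arrays. Ccl20 rose 7.43-fold in SIMPL-/- MEFs (log2 2.89, SE 0.16, adjusted p = 7.96e-10) and 15.8-fold in littermate MEFs (log2 3.98, SE 0.16, adjusted p = 2.2e-12), the second largest rise of any gene there. The response was 1.08 smaller in SIMPL-/- MEFs (log2 difference −1.08, SE 0.23, 95% confidence interval −1.56 to −0.61, adjusted p = 0.0341). With TNFα the level was lower in SIMPL-/- MEFs by a log2 difference of −0.92 (SE 0.16, adjusted p = 0.000141), and without TNFα the difference was 0.17 (adjusted p = 0.421). The SD of 0.48 among the untreated littermate arrays was the widest of any member in any group, against a median SD of 0.089 over all genes in that group. The smaller response passed the threshold without array 3, 4, 7, 12 or 15 and was lost without any of the other 11 (adjusted p of 0.00196 to 0.0806), with the trend and robust setting of limma (adjusted p = 0.0543) and with the unmoderated test (adjusted p = 0.142). Without array 4, the highest untreated littermate array, the difference between the untreated groups became 0.35 (adjusted p = 0.0466).

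The promoter of Ccl20 is shown because this gene had the largest response of the 10 in littermate MEFs and the second largest, after Ccl2, in SIMPL-/- MEFs, with the match to the 10-base NF-κB consensus in capitals (RefSeq, GRCm38.p6, chr1:83116516-83116815, plus strand, from 250 bases before to 50 bases after the start site).
Ccl20: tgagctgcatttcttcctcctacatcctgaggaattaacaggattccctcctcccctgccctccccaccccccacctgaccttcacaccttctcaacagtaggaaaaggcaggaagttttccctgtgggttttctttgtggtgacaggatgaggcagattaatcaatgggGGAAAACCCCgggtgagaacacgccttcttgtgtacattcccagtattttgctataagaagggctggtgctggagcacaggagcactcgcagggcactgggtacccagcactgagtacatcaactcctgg
The match reads on the opposite strand and covers bases 80 to 71 upstream of the start site. Such a match, on either strand, was found in 8.46% of 32851 promoter windows of this length, and it is a match of letters only.

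Ccl11 (eotaxin), which attracts eosinophils through Ccr3, rose less than Ccl2 and Ccl7 beside it. It ranged from 6.64 to 6.96 in TNFα treated and from 6.35 to 6.63 in untreated SIMPL-/- MEFs, and from 6.83 to 6.95 in TNFα treated and 6.37 to 6.57 in untreated littermate MEFs. Treated and untreated arrays did not overlap in either genotype. The response was 1.21-fold in SIMPL-/- MEFs (log2 0.28, SE 0.07, adjusted p = 0.0418) and 1.33-fold in littermate MEFs (log2 0.41, SE 0.07, adjusted p = 0.00125), with a difference of −0.14 (95% confidence interval −0.35 to 0.08). The call in SIMPL-/- MEFs was lost without array 2, 3, 6, 8, 9, 10, 12, 14, 15 or 16 (adjusted p of 0.0213 to 0.156 over the 16 omissions) and with the methods' t-test (adjusted p = 0.272). The levels of Ccl11 with TNFα differed between the genotypes by −0.10 (adjusted p = 0.296) and those without TNFα by 0.03 (adjusted p = 0.722).

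Ccl8 (MCP-2), the last listed member of the same cluster in chromosomal order, had no response past the threshold in either genotype. It ranged from 4.43 to 4.76 in TNFα treated and 4.37 to 4.63 in untreated SIMPL-/- MEFs, and from 4.52 to 4.99 in TNFα treated and 4.50 to 5.02 in untreated littermate MEFs, so that all 4 groups overlapped. The responses were 0.09 in SIMPL-/- MEFs (95% confidence interval −0.16 to 0.34) and 0.03 in littermate MEFs (−0.22 to 0.28). The mean of Ccl8 over all arrays was below 6, the lowest level kept when dim genes were left out, and it was the single member removed by that filter.

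**Figure D2:**
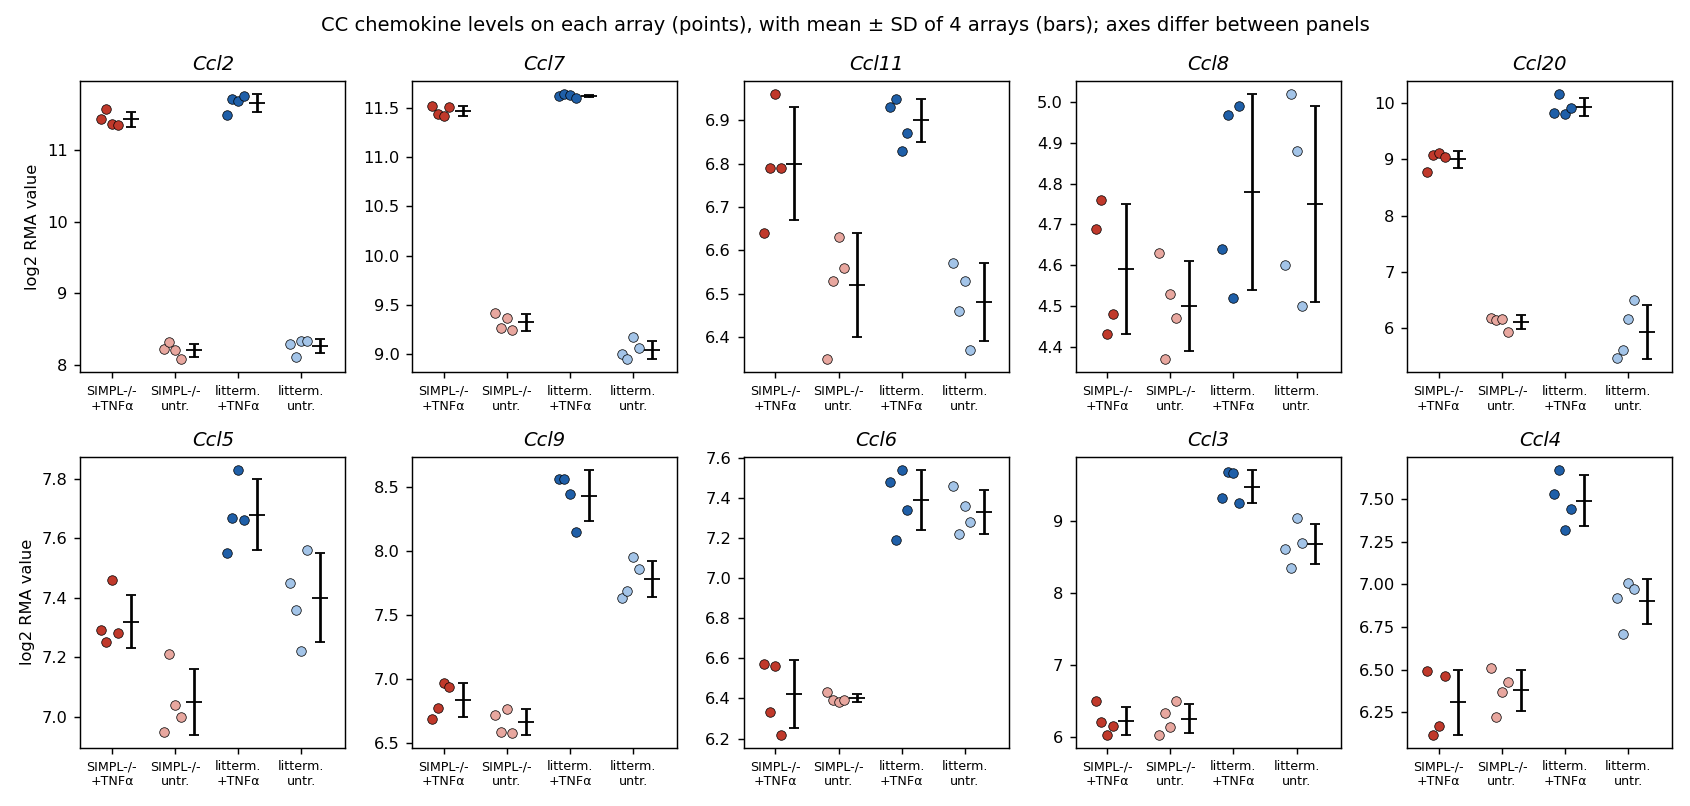
Log2 RMA values (vertical axis) of the 10 CC chemokines on each of the 4 arrays of TNFα treated SIMPL-/-, untreated SIMPL-/-, TNFα treated littermate and untreated littermate MEFs (points), with the mean ± SD of each group as a bar beside them; each panel has its own axis. In the upper row Ccl2, Ccl7, Ccl11 and Ccl20 separate by TNFα while the 4 groups of Ccl8 overlap, and the lower row (second cluster) separates by genotype within each condition.

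The 5 genes of the second cluster had another pattern, with lower levels in SIMPL-/- MEFs whether or not TNFα was given. Ccl3 (MIP-1α), an attractant of macrophages and T cells through Ccr1, had the largest difference. Its values were 6.50, 6.21, 6.04 and 6.16 in TNFα treated SIMPL-/- MEFs, against 9.32, 9.68, 9.67 and 9.25 in TNFα treated littermate MEFs. Without TNFα they were 6.04, 6.34, 6.15 and 6.50 in SIMPL-/- MEFs, against 8.62, 8.35, 9.04 and 8.70 in littermate MEFs. The 8 SIMPL-/- arrays shared a range of 6.04 to 6.50 with and without TNFα, and the littermate arrays lay far above it. The difference between the genotypes was −3.25 with TNFα (SE 0.14, adjusted p = 1.3e-12), the sixth largest fall of any gene, and −2.42 without TNFα (SE 0.14, adjusted p = 8.52e-11). In arrays that measure a whole culture, fewer cells of a type and less RNA per cell cannot be told apart. The mean of the myeloid markers on the same arrays was 7.17 ± 0.05 in SIMPL-/- and 9.17 ± 0.16 in littermate MEFs with TNFα (SD, n = 4 each), and 7.15 ± 0.05 and 9.02 ± 0.16 without it. The fall of Ccl3 was exceeded by 1 of the 32 markers with TNFα and by 10 of them without it.

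TNFα raised Ccl3 1.74-fold in littermate MEFs (log2 0.80, SE 0.14, adjusted p = 0.00118), while the response in SIMPL-/- MEFs was −0.03 (95% confidence interval −0.32 to 0.26, adjusted p = 0.949). The difference between the responses was −0.83 (95% confidence interval −1.24 to −0.42), and its adjusted p of 0.0727 missed the threshold. It passed with dim genes left out (adjusted p = 0.0423), with array weights (0.0237) and without array 3, 8 or 13 (0.0213, 0.0479 and 0.0497). The rise in littermate MEFs did not pass the methods' t-test (adjusted p = 0.0975). Beside the rise of 0.80, the myeloid markers had a median log2 response of 0.01 in SIMPL-/- and 0.11 in littermate MEFs. Of the 32, 2 rose in littermate MEFs, Cd14 by 0.79 and Cybb by 0.61, against 2.7% of all genes. In SIMPL-/- MEFs 0 rose (limma, 2 at an unadjusted p under 0.05, 0 by the methods' t-test), against 1.73%. The response of Cd14 was smaller in SIMPL-/- MEFs by a log2 difference of −0.61 (limma adjusted p = 0.00529). For Ccl3 the part of these markers in the response was not tested.

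Ccl4 (MIP-1β), the neighbour of Ccl3 and likewise an attractant of macrophages and T cells, followed it with smaller differences. It stood at 6.49, 6.12, 6.17 and 6.46 in TNFα treated SIMPL-/- MEFs, against 7.53, 7.67, 7.32 and 7.44 in TNFα treated littermate MEFs. Without TNFα it was at 6.51, 6.22, 6.37 and 6.43 in SIMPL-/- MEFs, against 6.92, 6.71, 7.01 and 6.97 in littermate MEFs. The genotypes did not overlap in either condition, with log2 differences of −1.18 (SE 0.10, adjusted p = 1.02e-08) and −0.52 (SE 0.10, adjusted p = 0.000286). TNFα raised Ccl4 by 0.59 in littermate MEFs (SE 0.10, adjusted p = 0.000678), with a value of −0.08 in SIMPL-/- MEFs (95% confidence interval −0.28 to 0.13). The response of Ccl4 was smaller in SIMPL-/- MEFs by a log2 difference of −0.66 (SE 0.14, adjusted p = 0.0299). The call of Ccl4 did not hold after median centring of the arrays (adjusted p = 0.053), with the unmoderated test (0.105) and without array 1, 2, 4, 5, 6, 9, 11, 12 or 14 (0.0232 to 0.08 over the 16 omissions).

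Ccl9 (MIP-1γ), a ligand of Ccr1 that is known from the mouse, was the third member of this cluster to rise in littermate MEFs. Its values were 6.69, 6.78, 6.97 and 6.94 in TNFα treated SIMPL-/- MEFs, against 8.56, 8.56, 8.44 and 8.15 in TNFα treated littermate MEFs. Without TNFα they were 6.72, 6.59, 6.77 and 6.58 in SIMPL-/- MEFs, against 7.63, 7.69, 7.95 and 7.86 in littermate MEFs. As for Ccl3 and Ccl4, the genotypes were fully apart, by −1.58 with TNFα (SE 0.09, adjusted p = 1.27e-10) and −1.12 without it (SE 0.09, adjusted p = 1.78e-08). The response was 0.18 in SIMPL-/- MEFs (95% confidence interval −0.02 to 0.38, adjusted p = 0.381) and 0.65 in littermate MEFs (SE 0.09, adjusted p = 0.000183, 0.0603 with the methods' t-test). The difference of −0.47 (SE 0.13, adjusted p = 0.151) did not pass the test except without array 8 (adjusted p = 0.0341).

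The promoters of Ccl9 and Ccl3 are shown as members of this cluster that rose in littermate MEFs (RefSeq, GRCm38.p6, chr11:83578587-83578886 and chr11:83649329-83649628, both minus strand), with a match to the NF-κB consensus in capitals.
Ccl9: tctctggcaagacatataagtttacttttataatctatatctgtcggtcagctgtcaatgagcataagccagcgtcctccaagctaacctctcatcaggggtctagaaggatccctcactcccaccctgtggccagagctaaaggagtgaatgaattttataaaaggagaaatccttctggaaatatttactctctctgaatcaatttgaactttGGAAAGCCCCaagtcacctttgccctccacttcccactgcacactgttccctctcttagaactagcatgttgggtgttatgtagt
Ccl3: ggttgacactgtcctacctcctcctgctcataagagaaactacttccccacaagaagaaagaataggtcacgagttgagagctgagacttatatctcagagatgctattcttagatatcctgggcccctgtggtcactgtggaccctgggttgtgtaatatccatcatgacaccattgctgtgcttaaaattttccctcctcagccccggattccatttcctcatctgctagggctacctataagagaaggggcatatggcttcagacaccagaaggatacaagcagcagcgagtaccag
In the window of Ccl9 the match covers bases 35 to 26 upstream of the start site, on the opposite strand, and the window of Ccl3 holds none on either strand. The AP-1 motif TGANTCA was found in the window of Ccl9 and in 7.81% of all windows. Of the 10 genes 5 are in the promoter table (Ccl3, Ccl6, Ccl8, Ccl9 and Ccl20), and the windows of Ccl6 and Ccl8 hold no match to the NF-κB consensus.

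Ccl6, a chemokine of mouse macrophages, and Ccl5 (RANTES), which attracts T cells, differed between the genotypes but had no TNFα response past the threshold. Ccl6 ranged from 6.22 to 6.57 in TNFα treated SIMPL-/- MEFs, against 7.19 to 7.54 in TNFα treated littermate MEFs, and from 6.38 to 6.43 in untreated SIMPL-/- MEFs, against 7.22 to 7.46 in untreated littermate MEFs. The log2 differences of Ccl6 were almost equal, −0.97 with TNFα (SE 0.08, adjusted p = 2.51e-08) and −0.93 without it (SE 0.08, adjusted p = 4.78e-08). Its responses were 0.02 in SIMPL-/- and 0.06 in littermate MEFs, and the difference of −0.03 had a 95% confidence interval of −0.28 to 0.22. In littermate MEFs this was the response nearest 0 among the 5 genes of the second cluster.

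Ccl5 ranged from 7.25 to 7.46 in TNFα treated SIMPL-/- MEFs, against 7.55 to 7.83 in TNFα treated littermate MEFs, and from 6.95 to 7.21 in untreated SIMPL-/- MEFs, against 7.22 to 7.56 in untreated littermate MEFs. The genotypes lay apart by −0.36 with TNFα (SE 0.08, adjusted p = 0.00152) and by −0.35 without it (SE 0.08, adjusted p = 0.00194). Its responses were 0.27 in SIMPL-/- (adjusted p = 0.0815) and 0.28 in littermate MEFs (adjusted p = 0.0527), with a difference of −0.01 (95% confidence interval −0.25 to 0.23). Both responses passed with quantile normalization (adjusted p = 0.0347 and 0.0456) and with dim genes left out (0.045 and 0.0316). The littermate response also passed with the trend and robust setting (0.0383), with array weights (0.0392) and without array 4, 5, 10 or 15 (0.0271, 0.0374, 0.0436 and 0.0491), and the SIMPL-/- response without array 10 (0.0439).

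The calls were also counted by cluster. In the first cluster 3 of 4 members rose with TNFα in each genotype, and in SIMPL-/- against littermate MEFs 2 of 4 were lower with TNFα and 0 of 4 without it (limma, 1 at an unadjusted p under 0.05, 0 by the methods' t-test). In the second cluster 0 of 5 rose in SIMPL-/- MEFs (limma, 1 at an unadjusted p under 0.05, 0 by the methods' t-test) and 3 of 5 in littermate MEFs, and 5 of 5 were lower in SIMPL-/- MEFs in both conditions. Over the 10 members 8 were lower with TNFα, where 18.4% of all genes were lower, and 5 were lower and 1 was higher without it, where 17.6% and 23.3% of all genes were. With TNFα 0 members were higher, against 17.8% of all genes (0 at an unadjusted p under 0.05 from limma, 0 by the methods' t-test). At a fold over 1.5 with an unadjusted p under 0.001, 5 members were lower with TNFα against 5.39% of all genes, and without it 3 were lower against 4.7% and 0 higher against 2.22%. The median difference of the 10 genes was −0.64 with TNFα and −0.30 without it, against 0.03 and 0.07 over all genes.

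Not every gene of the first cluster followed Ccl2. Ccl12 (MCP-5), a ligand of Ccr2 that lies between Ccl11 and Ccl8, ranged from 5.63 to 5.96 in TNFα treated SIMPL-/- MEFs, against 7.51 to 7.91 in TNFα treated littermate MEFs. Without TNFα it ranged from 5.78 to 6.04 in SIMPL-/- MEFs, against 7.01 to 7.81 in littermate MEFs. Its differences of −1.93 (SE 0.13, adjusted p = 8.32e-10) and −1.49 (SE 0.13, adjusted p = 3.45e-08) lay in the range of the second cluster, where those of Ccl11 and Ccl8 on either side of it were −0.10 and −0.19 with TNFα. The TNFα response of Ccl12 was −0.11 in SIMPL-/- MEFs (adjusted p = 0.753) and 0.32 in littermate MEFs (adjusted p = 0.201).

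**Figure D3:**
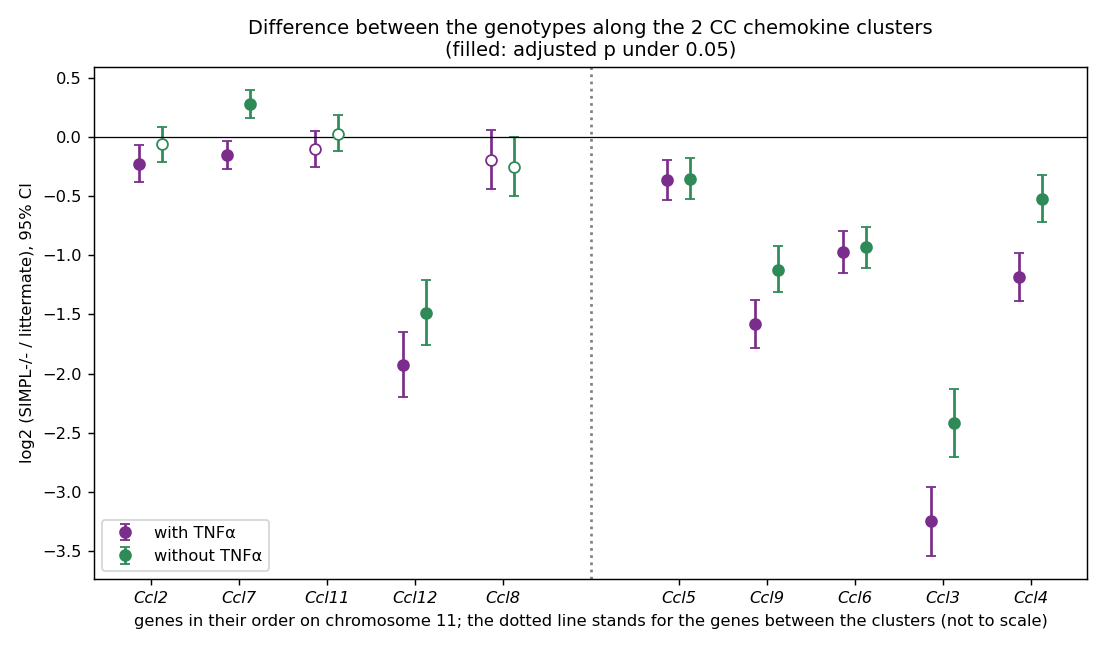
Difference between the genotypes (vertical axis, log2 of SIMPL-/- over littermate) with TNFα (purple, left point of each pair) and without it (green) for the genes of the 2 clusters in their chromosomal order, with 95% confidence intervals from limma as bars and filled points for an adjusted p under 0.05, n = 4 arrays per group. Ccl12 and all 5 genes of the second cluster lie below 0 in both conditions, Ccl3 lowest at −3.25 and −2.42.

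The falls in the second cluster were set beside those of the myeloid markers, whose median difference was −1.97 with TNFα and −1.81 without it. With TNFα 1 of the 32 markers had a larger fall than Ccl3, 24 a larger fall than Ccl9, 27 than Ccl4, 29 than Ccl6 and 30 than Ccl5. Without TNFα the counts were 10 for Ccl3, 28 for Ccl9, 30 for Ccl4, 28 for Ccl6 and 30 for Ccl5. All but Ccl3 thus fell less than most of the markers. Ptprc, the leukocyte antigen CD45, stood at 6.34 ± 0.22 in TNFα treated SIMPL-/- and 8.52 ± 0.20 in TNFα treated littermate MEFs (SD, n = 4 each), and Cd68, a lysosomal protein of macrophages, at 8.32 ± 0.07 and 11.48 ± 0.25. In the first cluster the untreated genotypes differed by −0.06 for Ccl2, 0.28 for Ccl7 (adjusted p = 0.000802), 0.03 for Ccl11, −0.25 for Ccl8 (adjusted p = 0.0988) and −1.49 for Ccl12. For Ccl12 18 of the 32 markers had a larger fall with TNFα and 24 without it. The part of the myeloid markers in the falls of the second cluster and of Ccl12 was not tested.

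**Figure D4:**
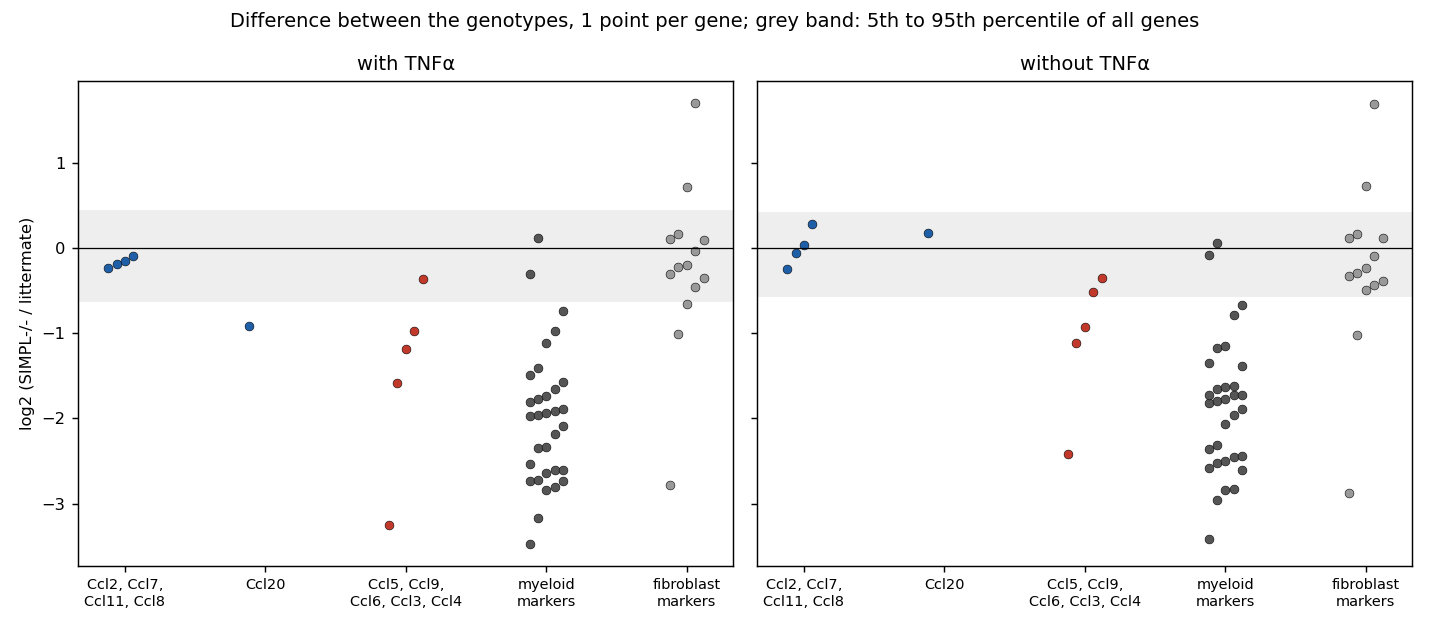
Difference between the genotypes (vertical axis, log2 of SIMPL-/- over littermate) with TNFα (left) and without it (right), 1 point per gene, for the first cluster, Ccl20, the second cluster, 32 myeloid markers and 14 fibroblast markers; the grey band spans the 5th to the 95th percentile of all genes. The second cluster and all but 1 of the myeloid markers lie below 0 with TNFα, and Ccl2, Ccl7, Ccl11 and Ccl8 lie within the band in both conditions, as do Ccl5 in both and Ccl4 without TNFα; Ccl12 is not plotted.

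The genes whose levels followed a member most closely were found by Pearson's r over the 16 arrays, which fall into 4 groups, so that r mostly reflects the differences between groups. For Ccl2 they were Tnfaip3 (r = 0.997), Ccl7 (0.994) and Nfkbia (0.992), and for Ccl20 they were Tnfaip3 (0.99), Nfkbia (0.985) and Irf1 (0.983). Tnfaip3 and Nfkbia encode inhibitors of NF-κB, and Irf1 encodes a transcription factor of interferon responses. For Ccl3 they were Sema4d (0.994), Plek (0.988) and Slc15a3 (0.987), and for Ccl6 they were Sft2d2 (0.983), Psd4 (0.981) and Lyz2 (0.98), the lysozyme of macrophages. The nearest genes of Ccl2 and Ccl20 were therefore genes that TNFα raises, and Lyz2 is one of the myeloid markers listed.

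Of the other CC chemokines 9 of 14 were measured by a probe set of their own, and few of them passed the test. With TNFα 0 of the 9 rose in SIMPL-/- MEFs (limma, 1 at an unadjusted p under 0.05, 0 by the methods' t-test) and 1 in littermate MEFs, against 1.73% and 2.7% of all genes. The latter was Ccl19, a ligand of Ccr7, with a log2 response of 0.39 (limma adjusted p = 0.00299) that did not pass the methods' t-test. Between the genotypes 2 were higher and 2 lower in SIMPL-/- MEFs with TNFα, against 17.8% and 18.4% of all genes, so these counts lie near the background. The higher ones were Ccl17 by 0.52 (adjusted p = 2.33e-05), a ligand of Ccr4, and Ccl25 by 0.43 (adjusted p = 0.000505), a ligand of Ccr9, and the lower ones were Ccl12 and Ccl19, Ccl19 with a log2 difference of −0.28 (adjusted p = 0.00705). Among 13 measured subunits, kinases and inhibitors of NF-κB 10 rose in SIMPL-/- and 11 in littermate MEFs, against 1.73% and 2.7% of all genes. Their median log2 responses were 0.82 and 1.02. Of the 13, 3 responded less in SIMPL-/- MEFs (1 by the unmoderated test), against 0.441% of all genes. Of 17 chemokines of the CXC, CX3C and XC families 7 rose in SIMPL-/- and 8 in littermate MEFs, against the same 1.73% and 2.7%. The response of 3 of the 17 was smaller in the knockout cells (1 by the unmoderated test), against the same 0.441%. The difference was −1.04 for Cxcl2 (SE 0.18, limma adjusted p = 0.01), a neutrophil attractant. Between the genotypes 9 of the 17 were lower and 1 higher in SIMPL-/- MEFs with TNFα, against 18.4% and 17.8% of all genes, and 9 were lower and 2 higher without it, against 17.6% and 23.3%.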

How the data were processed

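RNA of 16 MEF samples was labelled and hybridised to Affymetrix Mouse Gene 1.0 ST arrays, 4 per genotype and treatment. The deposited values are log2 values that the authors made with RMA in Partek per the submitters' processing notes, with versions not given in the sources used here. The methods name Affymetrix Microarray Suite instead, and give 1 h of TNFα where the labels give 45 min. RMA equalises the arrays (medians 6.67 to 6.76), and precision is limited by the 4 arrays per group.

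Probe sets with exactly 1 gene symbol (21789) gave 19938 genes, each gene with several being read by its brightest probe set, and 1621 probe sets with several symbols were left out. A mean for each group was fitted to all arrays with limma 3.58.1 in R 4.3.3 (12 residual and 6.19 prior degrees of freedom). Tests were two-sided, Benjamini-Hochberg adjustment of p-values covered all 19938 genes, and calls were made at an adjusted p under 0.05. The procedure was tested on simulated data. Differences are treated minus untreated and SIMPL-/- minus littermate, and the 5 contrasts share arrays. The methods' t-test is unpaired and two-tailed, and an unmoderated test of the 4 groups replaced it where responses were compared.

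The members and lists were chosen with earlier results of these data known. Genes were named by rule: the 10 members, Irak1bp1, up to 4 called genes of a list per contrast, and the 3 genes most correlated with Ccl2, Ccl3, Ccl6 and Ccl20. Ptprc was added as a leukocyte marker after its values were seen. Promoters are from RefSeq. Alternatives were other scalings, a filter on genes with a mean under 6, averaged probe sets, other variance settings, array weights, the compared arrays alone, the t-test, other thresholds and leaving out each array in turn.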

Additional observations from a re-analysis of the deposited data

Results flagged for a closer look

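The difference between the TNFα responses passed the test for 3 of the 10 CC chemokines, with log2 values of −1.08 for Ccl20, −0.66 for Ccl4 and −0.42 for Ccl7, each a smaller response in SIMPL-/- than in littermate MEFs. For Ccl4 the myeloid markers also differed between the genotypes, and their part in the value was not tested.

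Array 12 stood apart for Ccl20 among the untreated SIMPL-/- MEFs, with a log2 value of 5.93 where the other 3 arrays lay between 6.15 and 6.19. The gap took up 0.8294 of the range, just over Dixon's 95% limit for 4 arrays. Of 40 groups of 4 arrays examined 1 passed this limit, and chance alone gives about 1 in 20.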

How the results depend on the processing

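The counts of smaller responses and of genotype differences depended most on the setting. The 3 smaller responses in SIMPL-/- MEFs became 1 with arrays centred on their medians (Ccl20) and 1 with the unmoderated test (Ccl7), so none held under both. They became 0 at an adjusted p under 0.01 and 0 to 4 when 1 array was left out. At a fold over 1.5 and p under 0.001 the difference of Ccl7 was lost and that of Ccl3 passed. At a fold over 1.5 and p under 0.001, 5 of the 10 genes were lower with TNFα, and 3 were lower and 0 higher without it. The higher count without TNFα was 1 to 2 when 1 array was left out, as Ccl20 passed without array 4. Estimates near 0 changed sign. With arrays centred on their medians these were the response of Ccl3 in SIMPL-/- MEFs (9e-05) and the differences between responses of Ccl5 (0.0287) and Ccl6 (0.0023). With quantile normalization they were the response of Ccl8 in littermate MEFs (−0.0118), the difference between responses of Ccl5 (0.0325) and the untreated difference of Ccl11 (−0.0105). No call was among them. Leaving out 1 array gave −0.12 to 0.0523 for the response of Ccl3 and −0.0269 to 0.0903 for that of Ccl6 in SIMPL-/- MEFs, −0.054 to 0.12 for that of Ccl8 in littermate MEFs, differences between responses of −0.062 to 0.0536 for Ccl5, −0.0988 to 0.0342 for Ccl6 and −0.0284 to 0.146 for Ccl8, and an untreated difference of −0.00303 to 0.0912 for Ccl11. Over all genes the methods' t-test called 241 TNFα responses in SIMPL-/- and 501 in littermate MEFs, against 623 and 1026 with limma. Ccl8 was not tested with dim genes left out (13352 genes tested). No paired analysis was possible because no label ties treated and untreated arrays to an embryo. The causes were not tested.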

Other observations

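Of 14 measured receptors 0 rose and 0 fell in SIMPL-/- MEFs with limma (2 and 1 at an unadjusted p under 0.05, 0 and 0 by the methods' t-test). In littermate MEFs Ccrl2, a receptor that binds chemokines without classical signalling, rose (log2 1.70, adjusted p = 3.81e-11 from limma) and Ccr1 fell (log2 −0.43, adjusted p = 0.0371), a fall that did not pass the methods' t-test. Ccr1, a receptor of Ccl3, Ccl5 and Ccl9, ranged from 4.16 to 4.58 in TNFα treated SIMPL-/- and from 5.25 to 5.73 in TNFα treated littermate MEFs, and from 4.26 to 4.40 in untreated SIMPL-/- and from 5.70 to 6.2 in untreated littermate MEFs. Its genotype differences were −1.17 with TNFα (adjusted p = 1.76e-07) and −1.65 without it (adjusted p = 1.76e-09), the same direction as for Ccl3, Ccl5 and Ccl9. The group means of Ccr1, 4.33 to 5.99, all lay below 6, the limit used to leave out dim genes. Ccr2, the receptor of Ccl2, Ccl7 and Ccl12, differed by −0.30 with TNFα (adjusted p = 0.00393). In all 3 of the 14 receptors were lower and 1 was higher in SIMPL-/- MEFs with TNFα, against 18.4% and 17.8% of all genes. Without TNFα 1 was lower and 3 were higher, against 17.6% and 23.3%, the higher ones being Ackr1 (0.22), Ccrl2 (0.21) and Ackr4 (0.19). Of the 32 myeloid markers 27 had a larger fall than Ccr1 with TNFα and 21 without it, and their part in the fall of Ccr1 was not tested.

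Genes that control the decay of chemokine mRNA also responded. Of 10 such genes 5 rose in SIMPL-/- and 4 in littermate MEFs, against 1.73% and 2.7% of all genes. In response 0 of them differed with limma (1 higher and 2 lower at an unadjusted p under 0.05, 0 by the unmoderated test). Zc3h12a, a nuclease that degrades cytokine mRNA, rose by 0.95 in SIMPL-/- MEFs (adjusted p = 1.45e-06) and by 1.0 in littermate MEFs (adjusted p = 3.7e-07), and Zfp36 (tristetraprolin) by 0.71 (adjusted p = 4.7e-05) and 1.15 (adjusted p = 4.37e-08). Among 13 genes of proteoglycans, whose sugar chains hold secreted chemokines near the cell, and of the enzymes that build those chains, 1 rose in each genotype with limma, against the same 1.73% and 2.7% (0 in SIMPL-/- MEFs by the methods' t-test). It was Sdc4 (syndecan-4), with log2 responses of 0.35 in SIMPL-/- MEFs (adjusted p = 0.00338) and 0.82 in littermate MEFs (adjusted p = 5.44e-08) and a difference of −0.47 (adjusted p = 0.0207).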
